A study of Rattus norvegicus with 43 samples.

Results

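The comparison set the 14 rat pituitary arrays with the highest Hmox1 level against the 14 with the lowest, 28 of 43 arrays in all, and left 15 arrays between them. The sides were chosen by the measured Hmox1 intensity alone. They are not groups of the study, so Hmox1 itself was not tested. Hmox1 encodes heme oxygenase-1, the inducible enzyme that opens the heme ring and releases iron, carbon monoxide and biliverdin. The iron leaves the cell through ferroportin, the product of Slc40a1, or is stored in ferritin, and biliverdin is reduced to bilirubin by the reductases Blvra and Blvrb. In tissues that break down red cells or bleed, macrophages are known to carry much of this activity, and hemoglobin reaches them through the scavenger receptor Cd163. Transcription of Hmox1 is known to be released when heme displaces the repressor BACH1 from sites that NRF2 can then occupy.

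The 43 arrays measured the anterior pituitary of male F2 rats from an intercross of COP and ACI animals (COP grandmothers, ACI grandfathers), 1 animal per array. All 43 carried a subcutaneous Silastic implant with 5 mg of diethylstilbestrol (DES), a synthetic estrogen, from 9 weeks of age for 12 weeks, received BrdU (50 mg/kg) 4 hours before sacrifice and were killed at 21 weeks, so there is no untreated array. The animals were taken from the 22 heaviest and 21 lightest pituitaries of the F2 population, but the labels do not tell which animal was heavy or light. In whole gland RNA, fewer cells of a type and less RNA per cell cannot be told apart. Prl, the prolactin gene of lactotrophs, stood at 15.40 to 15.75 on the high side and 15.41 to 16.14 on the low side (log2 of intensity + 16, the scale of all levels below), and the posterior lobe genes Avp and Oxt lay under the filter on dim probe sets.

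The promoters of 3 genes from the results below are shown to place the sites searched for. Slc40a1 had the largest difference between the sides, Gpnmb had the lowest adjusted p of the slopes on Hmox1 over all arrays with the number set (animals 1 to 22 or 23 to 43) in the fit, and Tmem37 was the only one of 18 genes with a called slope and a promoter entry whose promoter held the NRF2 and BACH1 element. Each runs over the 250 bases before the RefSeq start of the gene on assembly GRCr8, in the direction of transcription. Capitals mark matches, on either strand, to TGACNNNGC (the core of the NRF2 and BACH1 element) or TCANGTG (an E-box bound by MITF and its relatives, searched after the genes were known). Slc40a1 (chr9:55543461-55543710, minus strand) held neither, Gpnmb (chr4:79340878-79341127, plus strand) held 1 match to TCANGTG, and Tmem37 (chr13:33743593-33743842, minus strand) held 2 matches to TGACNNNGC.
Slc40a1: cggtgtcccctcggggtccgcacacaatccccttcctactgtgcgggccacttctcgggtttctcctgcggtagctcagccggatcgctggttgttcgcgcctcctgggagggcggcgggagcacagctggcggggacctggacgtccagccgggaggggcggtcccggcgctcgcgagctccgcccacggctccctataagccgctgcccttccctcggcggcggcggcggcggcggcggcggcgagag
Gpnmb: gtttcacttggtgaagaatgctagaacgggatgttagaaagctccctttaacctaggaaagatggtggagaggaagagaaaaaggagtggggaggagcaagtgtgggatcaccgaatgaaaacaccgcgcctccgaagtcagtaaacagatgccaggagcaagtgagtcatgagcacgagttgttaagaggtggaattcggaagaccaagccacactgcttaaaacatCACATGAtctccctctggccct
Tmem37: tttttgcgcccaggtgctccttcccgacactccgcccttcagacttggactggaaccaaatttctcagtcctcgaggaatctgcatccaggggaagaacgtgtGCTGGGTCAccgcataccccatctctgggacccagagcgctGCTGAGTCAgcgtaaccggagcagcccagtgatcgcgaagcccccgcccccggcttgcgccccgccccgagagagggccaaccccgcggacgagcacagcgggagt

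TGACNNNGC was present in 10.1% of the 33469 promoters of the reference table and in 12.6% of the 8821 with a tested gene. It was present in 12.1% of 447 promoters of genes higher on the high Hmox1 side and in 12.7% of 502 promoters of genes lower there. TCANGTG was present in 11.5% of all promoters, 11.0% of those of tested genes, 8.95% of those of the higher and 11.8% of those of the lower genes. Of the 18 promoters of genes with a called slope, 4 held TCANGTG (Dab2, Fubp3, Gpnmb and Pex10) and 1 held TGACNNNGC. Matches to both motifs overlapped in 0.46% of all promoters. The reference table gives no promoter for Hmox1.

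On the high side, Hmox1 intensity ran from 314.7 to 3107.4 with a median of 572.4, and on the low side from 60.2 to 203.7 with a median of 164.25. The last array inside the high side, animal 40 at 314.7, was next to animal 6 at 310, and the last inside the low side, animal 22 at 203.7, was next to animal 26 at 208.7. The sides followed the animal numbers in the labels. Of the 14 high arrays, 13 were numbered 1 to 22, and of the 14 low arrays, 13 were numbered 23 to 43. The 15 arrays between held 8 of animals 1 to 22, the first number set, and 7 of animals 23 to 43, the second. What the order of the numbers stands for is not given, so high Hmox1 and number set can hardly be told apart in this comparison. The number sets hold 22 and 21 animals, the same counts as the heaviest and lightest pituitaries. Whether they are those weight classes is not given and was not tested. Animals 1 to 22 spanned 203.7 to 3107.4, a 15.3-fold range, and animals 23 to 43 spanned 60.2 to 314.7. Control probe sets for RNA quality overlapped between the sides. The 3′ minus 5′ difference of actin had a median of 1.43 on both, with ranges of 1.26 to 1.67 (high) and 1.30 to 1.97 (low). That of GAPDH ran from 0.06 to 0.28 (high) and 0.07 to 0.45 (low), and animal 43 had the highest value of both.

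**Figure D1:**
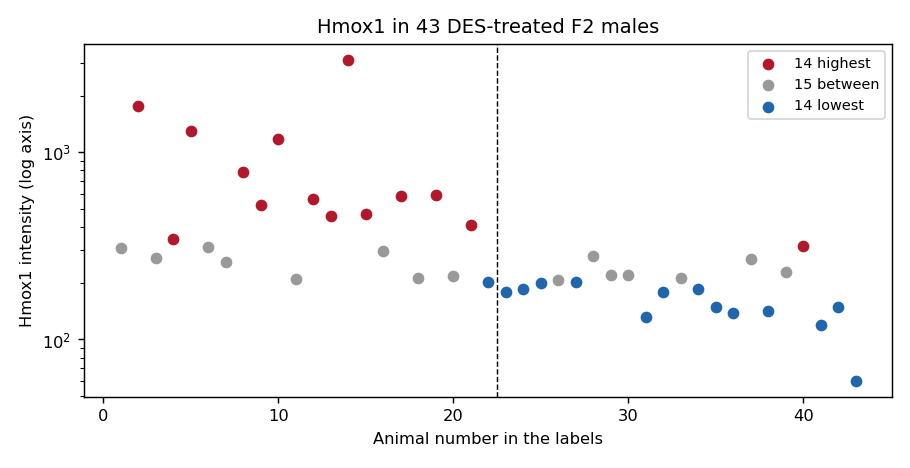
Hmox1 intensity (log axis) against the animal number in the labels for all 43 arrays, with the 14 highest, the 15 between and the 14 lowest in separate colours and a dashed line after animal 22. The high side holds 13 animals numbered 1 to 22 and the low side 13 numbered 23 to 43.

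Of 15520 probe sets tested between the sides with limma, 643 were higher (4.14%) and 728 lower (4.69%) on the high Hmox1 side at an adjusted p under 0.05. With the median of each array subtracted the counts were 874 higher and 491 lower. The ranges of the 14 high and 14 low arrays overlapped for every probe set. Of the calls, 614 of the 643 and 702 of the 728 also differed between animals 1 to 22 and 23 to 43 in the matching direction. With the number set as a covariate, 1 probe set was higher (0.00644%) and 0 were lower in limma, against 254 and 363 at an unadjusted p under 0.05. As slopes on Hmox1 over all 43 arrays without that covariate, 1530 were positive (9.86%) and 1478 negative (9.52%). For the genes the results turn on, the slope on Hmox1 inside a number set is therefore given as well. Such a slope is in log2 units of the gene per log2 unit of Hmox1. It was added after the imbalance had been seen. In animals 1 to 22, where Hmox1 varied most, 15 probe sets had a positive slope (0.0966%) and 1 a negative slope (0.00644%) at an adjusted p under 0.05. Over 43 arrays with the number set in the fit, 25 slopes were positive (0.161%) and 4 negative (0.0258%), and 15 of the 16 probe sets called in animals 1 to 22 were among them. Comparing the 7 highest with the 7 lowest arrays inside each number set gave 0 calls in either number set, with 644 higher and 479 lower probe sets at an unadjusted p under 0.05 in animals 1 to 22 and 276 and 285 in animals 23 to 43.

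Iron export showed the largest difference of all probe sets called higher. Slc40a1 (ferroportin) ran from 8.84 to 10.96 with a median of 9.90 on the high side and from 7.39 to 9.08 with a median of 8.06 on the low side. The ranges overlapped only through the arrays of the opposite number set, animal 40 at 8.84 and animal 22 at 9.08. The difference was 1.84 (SE 0.19), or 3.59-fold (limma, adjusted p = 1.54e-06). Inside animals 1 to 22 the slope was 0.56 (SE 0.07, limma adjusted p = 4.46e-05), and animals 14 and 2, with the highest Hmox1, also had the highest and second highest Slc40a1. The 7 highest Hmox1 arrays of this number set ran from 9.84 to 10.96 and the 7 lowest from 8.48 to 9.70, without overlap, as for 19 probe sets in this direction (0.122%) and 5 in the other (0.0322%). In animals 23 to 43 the slope was 0.10 (SE 0.20). The second Slc40a1 probe set gave a slope of 0.56 (SE 0.08) in animals 1 to 22 and a difference of 1.75 (SE 0.20) between the sides.

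None of the other 11 genes of iron storage, export and uptake above the filter passed the test between the sides. Calls over all probe sets tested were 4.14% higher and 4.69% lower. Heph, a ferroxidase that works with ferroportin, had a slope of 0.20 (SE 0.05, limma adjusted p = 0.177) in animals 1 to 22. Tfrc, the transferrin receptor, ran from 10.43 to 10.98 on the high and 9.94 to 11.04 on the low side. The ferritin genes Fth1 and Ftl1 had no singly named probe set.

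No other gene of heme breakdown or heme synthesis passed the test between the sides. Of all probe sets tested, 4.14% were called higher and 4.69% lower, so 0 calls among 4 and 10 genes is near these shares. Of Hmox2, Blvra, Blvrb and Por, the partners and relatives of heme oxygenase-1, 0 of 4 passed between the sides, with differences from -0.03 to 0.15. Blvrb, the reductase for biliverdin of the beta type, had a slope of 0.16 (SE 0.04, limma adjusted p = 0.342) in animals 1 to 22 and of 0.27 (SE 0.11) in animals 23 to 43. Heme synthesis had 0 of 10 members called, with a median difference of -0.03. Its erythroid first enzyme, Alas2, had a median of 7.84 on the high and 8.76 on the low side (limma, adjusted p = 0.0692). In limma, the heme synthesis list also had 0 slopes called in animals 1 to 22 and 0 with an unadjusted p under 0.05 in the positive direction.

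Receptors that take up hemoglobin and heme gave a mixed picture. Among the 6 list members above the filter 1 was higher and 1 lower, against 4.14% and 4.69% of all tested. Lrp1, the receptor for heme bound to hemopexin, ran from 9.29 to 10.25 on the high and 8.91 to 9.80 on the low side, a difference of 0.38 (SE 0.09, limma adjusted p = 0.00579), with a slope of 0.14 (SE 0.04, adjusted p = 0.383) in animals 1 to 22. Pgrmc1, a heme-binding membrane protein, was lower by a difference of -0.15 (SE 0.05, limma adjusted p = 0.0487), a call lost in 21 of 28 fits that each left out 1 array. The remaining 4 members above the filter did not pass. Hp, Hpx, Flvcr2 and Abcg2 lay under the filter and did not pass in a fit without one. Their differences were 0.21, 0.0057, -0.45 and -0.45 (limma, adjusted p = 0.703, 0.992, 0.314 and 0.398). Cd163, the hemoglobin scavenger receptor, was also too dim for the filter. In the fit without a filter, over 31041 probe sets, it ran from 6.60 to 8.15 on the high and 4.66 to 6.89 on the low side, with a difference of 1.38 (SE 0.23, limma adjusted p = 0.00117) and a slope of 0.37 (SE 0.10, adjusted p = 0.322) in animals 1 to 22.

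Globin RNA overlapped between the sides and did not pass the test. Hbb, the beta globin gene, ran from 12.67 to 14.76 on the high and 13.01 to 15.23 on the low side, a difference of -0.57 (SE 0.20, limma adjusted p = 0.0772). Its slope was 0.24 (SE 0.09) in animals 1 to 22 and -0.56 (SE 0.18) in animals 23 to 43. Hba-a3, an alpha globin gene, spread far more, from 6.61 to 13.86 on the high and 7.77 to 13.80 on the low side. No array lay between 8.92 and 12.44. Below this gap were animal 9 of the high side and animals 22, 27, 32 and 34 of the low side. The Hba-a3 difference of 1.17 (SE 0.73, limma adjusted p = 0.327) did not pass. With Hbb as a covariate, the counts between the sides were 213 higher and 300 lower. The summed log2 level of the 3 measured globin and erythroid genes had medians of 14.39 (high) and 14.49 (low). The part of blood in these results was not tested.

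Macrophage genes supplied 4 of the 16 probe sets with a slope in animals 1 to 22. Between the sides, 3 of the 21 macrophage list members above the filter were higher and 0 lower, against 4.14% and 4.69% of all tested. Mrc1, the mannose receptor of tissue-resident macrophages, ran from 8.33 to 9.62 (median 8.73) on the high and from 7.50 to 8.54 (median 7.95) on the low side, a difference of 0.91 (SE 0.12, limma adjusted p = 3.2e-05). Gpnmb, a transmembrane glycoprotein of phagocytes, ran from 10.49 to 12.04 (median 11.05) against 9.73 to 10.66 (median 10.38), a difference of 0.86 (SE 0.14, limma adjusted p = 0.000213). Both genes reached their highest levels of animals 1 to 22 in animals 14 and 2, the animals with the highest Hmox1. Cd68, a lysosomal glycoprotein of macrophages, differed less, by 0.43 (SE 0.11, limma adjusted p = 0.0122), with ranges of 8.53 to 9.88 and 8.51 to 9.32.

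Inside animals 1 to 22, Gpnmb had a slope of 0.37 (SE 0.04, limma adjusted p = 1.03e-05), Mrc1 of 0.34 (SE 0.05, adjusted p = 0.00229), Cd68 of 0.28 (SE 0.05, adjusted p = 0.00367) and Lgals3, which encodes galectin-3, of 0.19 (SE 0.03, adjusted p = 0.00838). Of the 21 members, 19 had a positive slope, against 51.6% of all probe sets tested, and the list median was 0.11 against 0.00201. In animals 23 to 43, 12 of the 21 slopes were positive with a median of 0.03, and between the sides 13 of the 21 differences were positive. In animals 1 to 22, positive slopes with an unadjusted p under 0.05 numbered 10 of 21, against 4.32% of all tested. The complement genes C1qa, C1qb and C1qc, abundant in macrophages, had slopes between 0.08 and 0.10, and Csf1r, the receptor for the macrophage growth factor, had a slope of 0.07 (SE 0.06). The summed level of all 21 ran from 14.69 to 15.21 on the high and 14.58 to 15.29 on the low side. In the 7 highest Hmox1 arrays of animals 1 to 22 this sum ran from 14.90 to 15.21 and in the 7 lowest from 14.55 to 15.09. Itgam and Trem2 lay under the filter and did not pass in the fit without one. Their differences between the sides were -0.47 (SE 0.32, limma adjusted p = 0.498) and -0.02 (SE 0.33, limma adjusted p = 0.985). Their slopes in animals 1 to 22 were -0.11 (SE 0.16) and 0.33 (SE 0.19), neither of them called. Spic, a transcription factor that heme induces in red pulp macrophages, was also too dim for the filter. Without a filter it ran from 6.91 to 8.20 on the high and 5.02 to 7.84 on the low side (limma, adjusted p = 0.0137), with a slope of 0.32 (SE 0.06, adjusted p = 0.0406) in animals 1 to 22.

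MHC class II genes mark antigen-presenting cells. All 7 members above the filter had lower means on the high side, and 1, RT1-Ba, passed with a difference of -0.50 (SE 0.15, limma adjusted p = 0.0369). Of all probe sets tested, 4.69% were called lower. Their slopes in animals 1 to 22 had a median of -0.13, with 0 calls (limma) and 1 positive slope. All 13 singly named markers of granulocytes, mast cells and lymphocytes lay under the filter.

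The other genes called in animals 1 to 22 were named after their values were seen. Fcna, a ficolin that binds microbial sugars, had the lowest adjusted p there, with a slope of 0.55 (SE 0.05, limma adjusted p = 6.49e-07) and of 0.38 (SE 0.19) in animals 23 to 43. It ran from 8.18 to 10.13 on the high and 6.89 to 8.48 on the low side. Cfd, complement factor D, had slopes of 0.44 (SE 0.06, limma adjusted p = 0.000488) and 0.60 (SE 0.18) in the 2 number sets. Pf4, a chemokine of platelets that some macrophages also express, had a slope of 0.42 (SE 0.06, limma adjusted p = 0.00166) in animals 1 to 22 and of 0.07 (SE 0.15) in animals 23 to 43. Creg1, a lysosomal and secreted glycoprotein, had a slope of 0.31 (SE 0.04, limma adjusted p = 8.07e-05) for its brighter probe set and of 0.26 (SE 0.06, adjusted p = 0.125) for the second.

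Matrix and growth factor genes completed the calls. Col3a1 and Col4a1, collagens of the stroma and of basement membranes, had slopes of 0.35 (SE 0.07, limma adjusted p = 0.0407) and 0.21 (SE 0.04, adjusted p = 0.0112). Igfbp3, which binds insulin-like growth factors, did not pass between the sides (limma, adjusted p = 0.483) but had a slope of 0.26 (SE 0.04, adjusted p = 0.00681). Rarres1, Arl11 and Pex10, a peroxisome assembly factor, had slopes of 0.30, 0.27 and -0.26. Dab2, an endocytic adaptor, ran from 9.22 to 10.87 on the high and 8.45 to 9.47 on the low side, a difference of 1.02 (SE 0.13, limma adjusted p = 1.24e-05). Its slope was 0.30 (SE 0.07, limma adjusted p = 0.077) in animals 1 to 22 and was called with all 43 arrays and the number set in the fit (0.29, SE 0.06, adjusted p = 0.00633). Axl and Sirpa, receptors in the clearance of dying cells and its restraint, differed between the sides by 0.32 (SE 0.08, limma adjusted p = 0.0104) and 0.27 (SE 0.07, adjusted p = 0.0198). Their slopes passed over 43 arrays (0.16 and 0.13, limma adjusted p = 0.0155 and 0.0358) and not in animals 1 to 22 alone. Tmem37, a transmembrane protein gene, did not pass between the sides (0.24, SE 0.11, limma adjusted p = 0.173) and had a slope of 0.25 (SE 0.06, adjusted p = 0.0358) over 43 arrays with the number set.

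**Figure D2:**
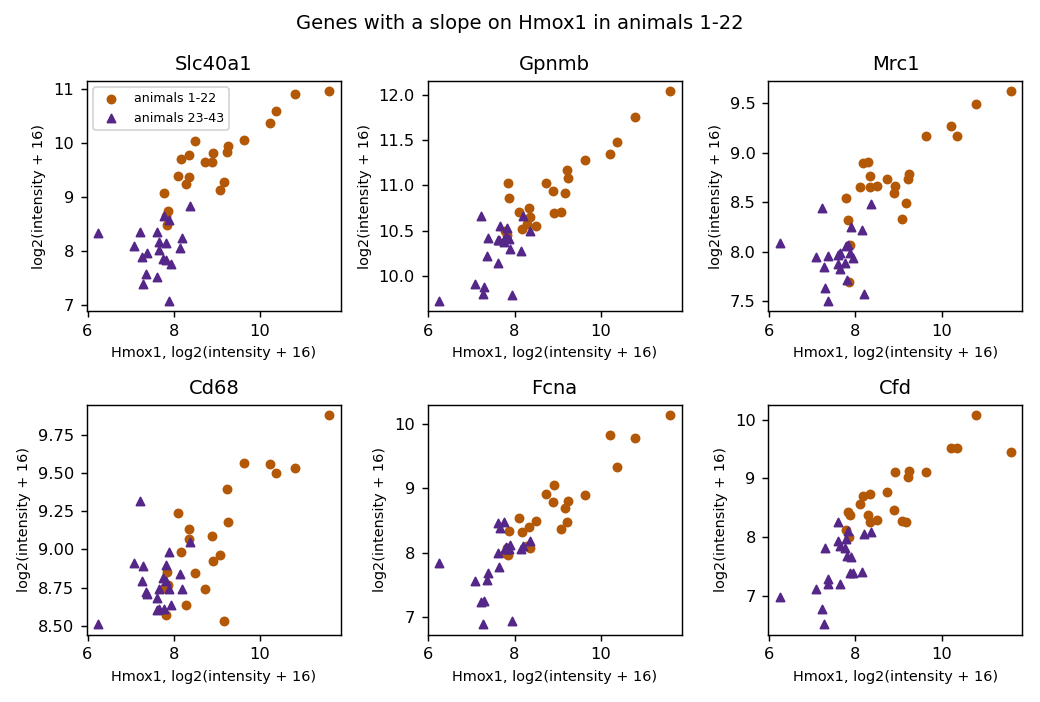
Levels of 6 genes called in animals 1 to 22 against Hmox1, both as log2(intensity + 16), with 1 point per animal and the 2 number sets marked by circles (1 to 22) and triangles (23 to 43). Inside the circles every gene rises with Hmox1, and animals 14 and 2 form the right end.

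Leaving out animals showed how far these slopes rest on single arrays. Of the 16 probe sets, 9 were called in each of the 22 fits that left out 1 array. Col3a1 was called in 10 of 22, and was also lost without arrays of lower Hmox1, such as animals 18 and 22. Arl11 was lost without animal 2. Without animal 14 (Hmox1 3107.4), 10 of the 16 probe sets were still called, and Cd68, Lgals3, Pf4, Col3a1, Col4a1 and Pex10 were not. Without animals 14 and 2, 6 of the 16 were called: Slc40a1 (0.58, SE 0.10), Fcna (0.54, SE 0.07), Cfd (0.47, SE 0.08), Igfbp3 (0.34, SE 0.06), Gpnmb (0.32, SE 0.06) and Creg1 (0.32, SE 0.06), with limma adjusted p values of 0.0259 except for Fcna at 0.00268. All 16 slopes kept their sign. In animals 23 to 43, where Hmox1 had an SD of 0.46 log2 units against 1.04 in the first number set, limma gave 1 call (0.00644%), and 0 without animal 43. The difference between the slopes of the number sets, tested as an interaction, had adjusted p values from 0.0917 to 0.953 for these 16, so a difference was not shown for any of them. Over all probe sets the interaction called 40 larger (0.258%) and 146 smaller slopes (0.941%) in animals 1 to 22, and 0 without animal 43 (limma, 1055 at an unadjusted p under 0.05).

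**Figure D3:**
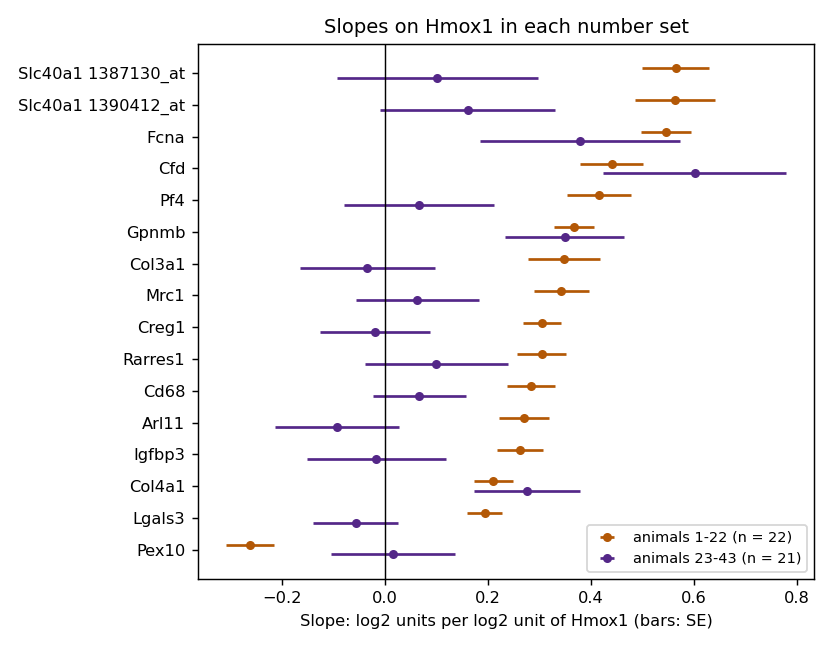
Slope on Hmox1 (log2 units per log2 unit, bars are SE) for the 16 probe sets called in animals 1 to 22, in that number set (n = 22) and in animals 23 to 43 (n = 21). Cfd, Gpnmb, Fcna and Col4a1 have slopes of 0.60, 0.35, 0.38 and 0.28 in the second number set, while the others lie between -0.09 and 0.16 there.

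Some marker genes of gonadotrophs, thyrotrophs and somatotrophs were lower on the high side, where 4.69% of all probe sets tested were lower. Fshb, the beta subunit of follicle-stimulating hormone, ran from 6.58 to 7.80 (median 7.22) on the high and from 7.24 to 9.01 (median 8.53) on the low side, a difference of -1.13 (SE 0.16, limma adjusted p = 4.17e-05). Nr5a1, the gonadotroph transcription factor SF-1, differed by -1.01 (SE 0.15), Gnrhr, the receptor for gonadotropin-releasing hormone, by -0.85 (SE 0.13) and Cga, the shared alpha subunit, by -0.56 (SE 0.10), so that 4 of 5 gonadotroph genes were lower. Lhb did not pass (limma, adjusted p = 0.109). Tshb, the beta subunit of thyrotropin, ran from 10.28 to 12.38 on the high and 11.05 to 14.27 on the low side, a difference of -1.43 (SE 0.23, limma adjusted p = 0.00024). Gh1, growth hormone, differed by -0.69 (SE 0.11) and its releasing hormone receptor Ghrhr by -0.48 (SE 0.10), the 2 called of 5 somatotroph genes, of which 1 was higher in mean (0.15). Tshb was 1 of 2 thyrotroph genes above the filter, and the other differed by -0.11 and did not pass.

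Of the 8 called genes of gonadotrophs, thyrotrophs, somatotrophs, corticotrophs and melanotrophs, all 8 differed between animals 1 to 22 and 23 to 43 (limma), and 0 had a slope called in animals 1 to 22. Over all probe sets, 14.3% were higher and 13.8% lower in animals 23 to 43, nearly all calls between the sides were among them, and 16 of 15520 had a called slope, so these counts are near those of all calls. The slopes there were -0.03 (SE 0.06) for Fshb, 0.05 (SE 0.08) for Gnrhr, -0.06 (SE 0.04) for Cga, -0.08 (SE 0.11) for Tshb and -0.12 (SE 0.06) for Gh1. Animal 22, a low Hmox1 array numbered in the first number set, had Tshb at 11.05 and Fshb at 7.25, against medians of 11.55 and 7.14 in the 13 high arrays of its own number set and of 13.20 and 8.55 in the 13 low arrays of the second number set. Its Nr5a1, at 7.74, lay above the highest of those 13 high arrays (7.65). Animal 40, a high Hmox1 array of the second number set, had Tshb at 12.12, below the lowest of the 13 low arrays of its number set (12.53), Fshb at 7.63, and Nr5a1 at 8.06, inside the range of those low arrays (7.93 to 8.79). The pair of arrays thus took no single side across these genes. Inside animals 23 to 43 the slopes were -0.52 (SE 0.17) for Tshb and -0.38 (SE 0.12) for Nr5a1, with 0 negative calls over all probe sets (limma). Pcsk2, a prohormone convertase, was the only member of the list of corticotrophs and melanotrophs above the filter. It was higher by 0.62 (SE 0.12, limma adjusted p = 0.00162), with slopes of 0.10 (SE 0.05) and 0.29 (SE 0.13) in the 2 number sets. In the fit without a filter, Tbx19, the transcription factor of these cells, was lower, with a difference of -0.57 (SE 0.15, limma adjusted p = 0.0304). Pomc, their hormone precursor, differed by -0.66 (SE 0.28, limma adjusted p = 0.218) and did not pass. The lactotroph genes Prl, Drd2, Pou1f1 and Agtr1b had 0 of 4 called.

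**Figure D4:**
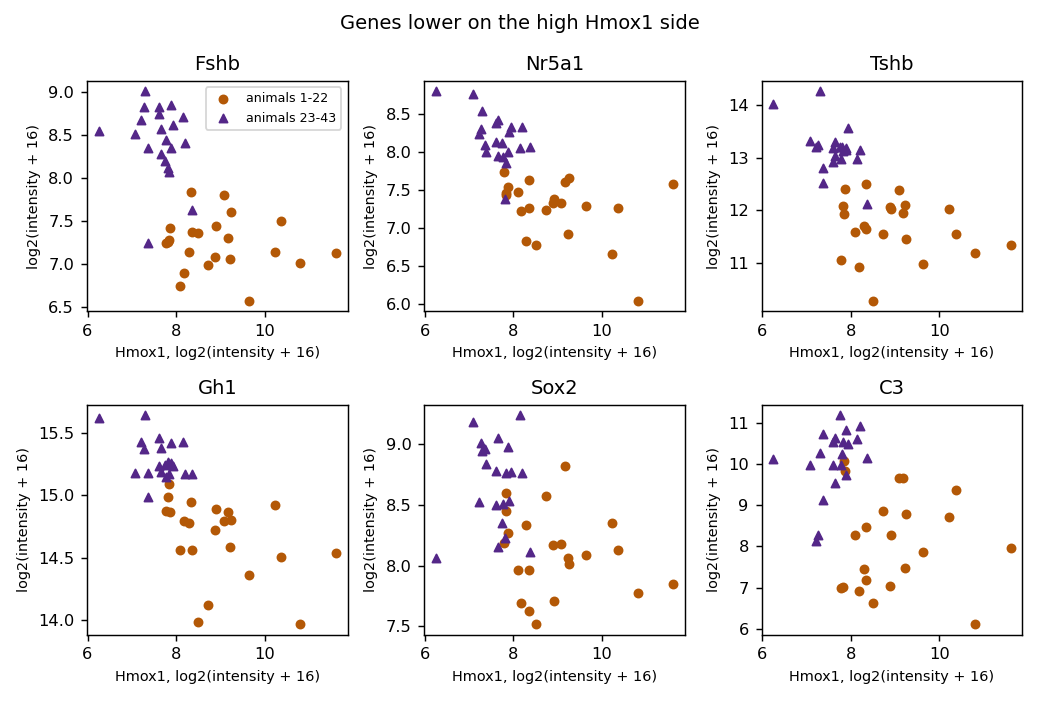
Levels of 6 genes that were lower on the high Hmox1 side against Hmox1, both as log2(intensity + 16), with circles for animals 1 to 22 and triangles for animals 23 to 43. The triangles lie above the circles in most panels, and the circles show no called slope, as for Fshb (-0.03, SE 0.06).

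Folliculostellate and stem cell genes were lower in 5 of 6 members: Aldh1a1, Sox2, Anxa1, S100b and Fxyd1, with differences from -0.60 to -0.33. Of all probe sets tested, 4.14% were higher and 4.69% lower. Between the number sets, 4 of the 6 members were lower in animals 1 to 22 and 1 higher, and 0 had a slope called there (limma). S100b, a marker of folliculostellate cells, did not pass between the number sets (limma, adjusted p = 0.111). Its slopes in them were -0.17 (SE 0.08) and -0.26 (SE 0.10), neither of which passed. In the matrix list Col6a1, Lox and Col3a1 were higher and Dcn, which encodes decorin, lower by a difference of -1.04 (SE 0.20). Lox and Dcn had slopes of -0.05 and -0.04 in animals 1 to 22. Of 7 endothelial genes, Tek, the angiopoietin receptor, was lower by a difference of -0.47 (SE 0.09).

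Stress genes often named with Hmox1 had calls in both directions. Against 4.14% higher and 4.69% lower of all probe sets tested, the list of NRF2 targets and regulators had 1 higher and 3 lower of 19. Srxn1 was higher by 0.22 (SE 0.07) and Nfe2l2 (NRF2 itself), Nqo1 and Me1 were lower, with differences of -0.29, -0.42 and -0.22. The list median was -0.00488 between the sides and 0.03 for the slopes in animals 1 to 22, with 0 of 19 called there. Heat shock genes had 0 of 8 called, and their median was -0.04. In the hypoxia list 1 of 13 was higher (Pdk1) and 2 were lower (Hif1a and Pgk1). C3, an acute phase complement gene, had the largest negative difference of its list, -1.35 (SE 0.42, limma adjusted p = 0.0368), but 0.73 with the number set as covariate, where it did not pass. The remaining lists had 1 call each of 10 lysosome (Npc2, lower), 9 immediate early (Ier3, higher), 7 glucocorticoid-induced (Sgk1, lower) and 3 posterior lobe and neural genes (Nefl, lower), and 2 of 8 estrogen-responsive genes (Vip and Igfbp5, lower). Proliferation genes had 0 of 24 called, with 19 of 24 higher in mean on the high side and a median of 0.12. The median over all 15520 probe sets was 0.00132. Between the number sets, 10 of the 24 proliferation genes were higher in animals 1 to 22 and 0 lower (limma), against 13.8% and 14.3% of all probe sets. Of the calls on list members, those of Srxn1, Me1 and Ier3 were kept in 16 of the 28 fits that left out 1 array each, RT1-Ba in 18, C3 in 13 and Vip in 8, while all others except Pgrmc1 were kept in all 28.

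**Figure D5:**
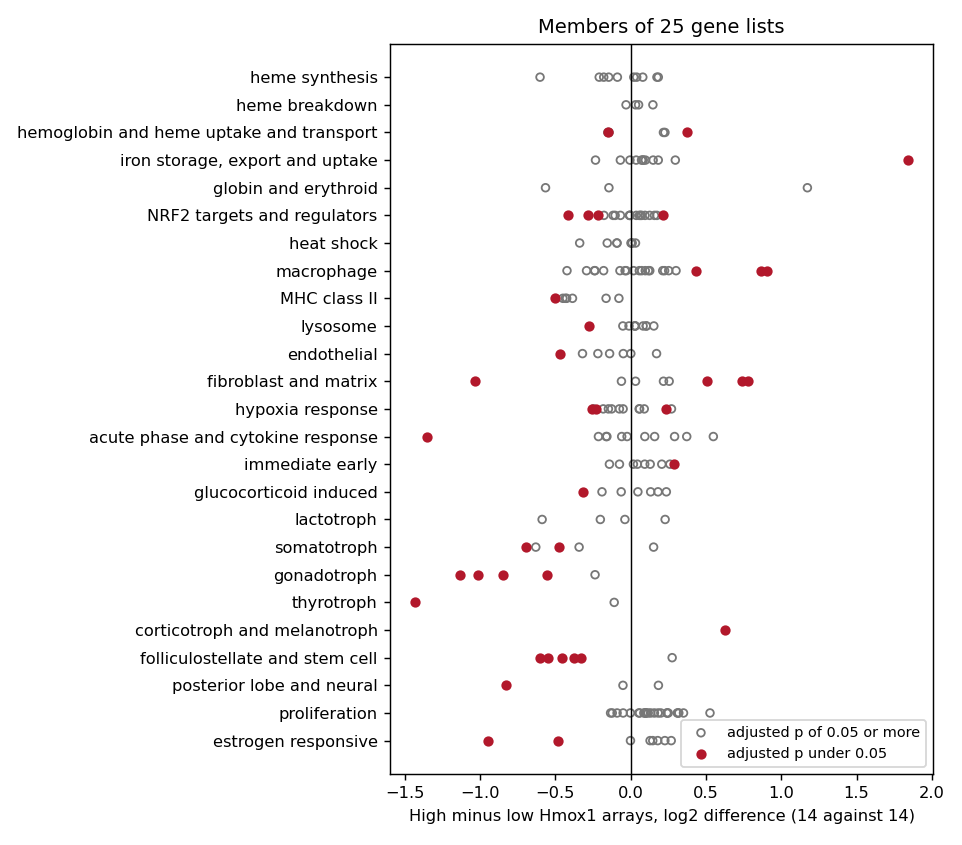
Log2 difference of the high minus the low Hmox1 arrays (14 against 14) for the members of 25 gene lists that lay above the filter. Each list has 1 row, and filled points mark a limma adjusted p under 0.05. Slc40a1 at 1.84 stands at the right, and the gonadotroph, thyrotroph and folliculostellate rows hold called members on the left.

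Among genes outside the lists, those with the strongest lower calls were Hey2, a Notch target, Gpm6a and Nnat, neuronal membrane genes, with differences of -0.94 (SE 0.11), -1.30 (SE 0.16) and -1.22 (SE 0.15, limma adjusted p = 1.1e-05 for each). Nnat kept a difference of -1.16 with the number set as covariate, without passing (limma, adjusted p = 0.702). On the higher side Bdnf, a neurotrophin, differed by 0.55 (SE 0.09, limma adjusted p = 0.00024), with a slope of -0.00323 (SE 0.04) in animals 1 to 22.

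In the 15 arrays between the sides, which hold 8 animals of the first number set and 7 of the second, the slope on Hmox1 had the sign of the side difference for 78.8% of the higher and 85% of the lower calls, against 60.1% of all probe sets. Hmox1 in these arrays ran from 211.3 to 310 in the first number set and from 208.7 to 277.7 in the second. Most calls also differed between the number sets, so these shares cannot be told apart from the number set. The calls were spread over the genome: 9.57% of 9374 genes with a RefSeq chromosome were called, and the share per autosome ran from 4.85% (chromosome 12) to 13.2% (chromosome 18). On chromosome 19, 40 tested genes that flank Hmox1 were taken, 20 in each direction. Between the sides 7.5% of them were called in limma (Cbln1 higher, Sall1 and Dnaja2 lower). In animals 1 to 22, 0 of them had a called slope (limma).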

How the data were processed

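The authors deposited 1 intensity per probe set for each of 43 biotin-labelled arrays, already scaled: trimmed means, with 2% of probe sets cut at each end, were 500.17 to 500.22. The program behind these probe set values was not given in the sources used here, and depth has no meaning for arrays, whose number limits the precision. Each sample is a separate animal, named by its title number.

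The value 16 was added and the log2 taken, which understates changes of dim probe sets. Of 31099 probe sets, 57 controls and the Hmox1 probe set were left out, and the 15520 with a mean log2 above the median (7.16) were tested with limma 3.58.1 in R 4.3.3 (lmFit, eBayes, 2-sided, Benjamini-Hochberg over all of them, threshold 0.05). Array medians ran from 123.1 to 142. Names were used for probe sets with 1 symbol in the platform annotation, and a list member stands for its brightest singly named probe set. The fits were tested on simulated data.

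The sides, the 26 gene lists (311 entries) and the rule for named genes were chosen with earlier results of these data known. Named genes are list members, the 15 genes at either end of the moderated t, the 10 largest and 10 smallest differences, and, added later, those with a called slope on Hmox1. Alternatives covered the pseudocount, the filter, scaling, array quality, Hbb, the size of the sides, the animal number and single arrays. Promoters and gene order came from RefSeq tables of GRCr8; 99.7% of singly named probe sets were found there. No protein sequences were used here.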

Additional observations from a re-analysis of the deposited data

Results flagged for a closer look

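For 2 named genes the slope on Hmox1 differed between the number sets in a limma interaction over 43 arrays. Mgll, which encodes monoacylglycerol lipase, had a slope of -0.03 (SE 0.08) in animals 1 to 22 and of 1.17 (SE 0.35) in animals 23 to 43, a difference of -1.20 (SE 0.32, adjusted p = 0.0461). Ccna2, which encodes cyclin A2, had slopes of -0.10 (SE 0.06) and 1.03 (SE 0.27), a difference of -1.14 (SE 0.24, adjusted p = 0.0214). Ccna2 stood at 4.56 in animal 43, the array with the lowest Hmox1, against 6.36 to 8.28 in animals 23 to 42. Animal 43 also had the largest 3′ minus 5′ differences of all 43 arrays, 1.97 for actin and 0.45 for GAPDH. Whether RNA quality had a part in the interaction calls was not tested. Without animal 43 the differences were -1.24 (SE 0.43, limma adjusted p = 0.709) for Mgll and -0.23 (SE 0.24, limma adjusted p = 0.881) for Ccna2. Over all probe sets the interaction gave 40 calls with a larger (0.258%) and 146 with a smaller slope in animals 1 to 22 (0.941%), and 0 and 0 without animal 43 (limma, 1055 at an unadjusted p under 0.05).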

How the results depend on the processing

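No paired analysis was possible because the 43 animals form 1 labelled group. Of the 72 differences between the sides that belong to named genes, all 72 kept their direction and 64 their call in every fit that left out 1 array, and all 72 kept both with pseudocounts of 1 and 64 and with quantile normalization. Leaving out 1 array at a time gave 546 to 918 higher and 582 to 1003 lower probe sets between the sides, the lowest counts without animal 13 and the highest without animal 40, and for the slopes in animals 1 to 22 gave 13 to 18 positive and 1 to 2 negative. Counts moved by more than 1.5 times without a filter (418 higher), above the 75th percentile (421 lower), with Hbb as covariate (213 and 300) and as slopes over 43 arrays (1530 and 1478). They fell to 1 and 0 with the number set as covariate and to 0 and 0 with a spline over the animal number and in each number set alone (7 against 7). With the array medians subtracted, 69 of the 72 named calls were kept. The slopes in animals 1 to 22 gave 5 and 0 calls above the 75th percentile, 7 and 0 without animals 14 and 2, and 2 negative calls each with quantile normalization, array medians subtracted, array quality or Hbb as covariates. The slopes with the number set gave 6 and 0 above the 75th percentile, 1 negative call without a filter and with trend and robust eBayes, 16 positive with array medians subtracted, 89 and 83 with Hbb, 14 positive without animal 14, and 3 and 0 without animals 14 and 2. Lists with the probe set of largest SD for each gene kept 46 of 52 counts within 1.5 times.

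Differences that reversed with the number set as covariate were Matn2 (-0.0307), Nppc (-0.36), Cga (0.0393), Hif1a (0.0845), Lox (-0.0332), Nefl (0.11) and C3 (0.73). In the 7 against 7 arrays of animals 1 to 22 they were Bdnf (-0.053), Htr5b (-0.0249), Matn2 (-0.0500), Mtdh (-0.12), Cdh13 (-0.29), Anxa1 (0.0436), Ghrhr (0.0336), Gnrhr (0.13), Lox (-0.13), Nefl (0.0282), Npc2 (0.0982), Nqo1 (0.23), Pdk1 (-0.048), Pgk1 (0.0273), Sgk1 (0.11), Tek (0.0211), Fshb (0.00172), Ddit4l (0.0554), Nabp1 (0.0586), Plaat3 (0.16) and Prr15 (0.0561). In those of animals 23 to 43 they were Matn2 (-0.0198), Cdh13 (-0.00067), Lox (-0.13), Me1 (0.0584), Nefl (0.0279), Npc2 (0.0815), Nqo1 (0.0627), Pgk1 (0.00922), Sgk1 (0.0131), Vip (0.44), C3 (0.95), Ddit4l (0.0693), Rab3b (0.014), Cartpt (0.26) and Harbi1 (0.11). The cause of these reversals was not tested.

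The sides were ranked by a measured transcript and nearly follow the animal numbers, so a difference between them cannot be told apart from a difference between the number sets. The slopes inside animals 1 to 22 rest on 22 animals, and 6 of 16 calls remained without animals 14 and 2. All slope fits inside a number set were chosen after seeing the data. The number of arrays limits the precision, and dim probe sets under the filter were tested only in the fit without one.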
